A study of Mus musculus with 2 samples.

Results

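The 3 NR4A nuclear receptor genes Nr4a1, Nr4a2 and Nr4a3 and the 3 zinc finger genes Egr1, Egr2 and Egr3 were described in T cells sorted from adult mouse skin and lung. These 6 of the 27514 genes in both deposited gene lists were chosen by name. They were read in every barcode with at least 1 unique molecular identifier (UMI, 1 captured RNA molecule) of Cd3d, Cd3e or Cd3g, a minimum of 200 genes and no more than 10% of UMIs from mitochondrial genes. This kept 6400 of 6601 skin barcodes and 8349 of 8730 lung barcodes, called CD3 cells here. The study sorted regulatory T cells (Tregs), which carry the transcription factor Foxp3, to profile them in 2 tissues with 10x Single Cell 3' v2 chemistry. The skin library came from back skin of adult Foxp3-CreERT2GFP C57Bl/6 mice, and the lung library from adult Foxp3-GFP C57Bl/6 mice (Tachilla strain). Both tissues were digested with collagenase, and the sort took CD45+ CD3+ CD4+ GFP+ cells, so all cells carry a Foxp3 reporter and all went through digestion. There was 1 library per tissue with no untreated or undigested sample, so nothing below has a replicate check or a test. Tissue, reporter line, library and gene annotation differ together and cannot be told apart.

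NR4A proteins are orphan nuclear receptors, and EGR proteins are zinc finger activators that bind GC-rich sites. In T cells the calcium and MAP kinase arms of antigen receptor signalling switch these genes on within minutes to hours, and Nr4a1 is widely used as a reporter of receptor signal strength. Fos and other immediate early genes answer receptor signals too, but also growth factors, stress and the enzymatic digestion of tissue, and Egr1 is likewise an immediate early gene in many cell types including fibroblasts. Nr4a factors help maintain Foxp3 and Treg identity, and Egr2 and Egr3 restrain T cell activation. The questions here were how high the 6 genes stood in each tissue, which of them occurred in the same cells, and how far each followed Fos from cell to cell.

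Promoter sequence was available for 4 of the 6 genes in RefSeq (build GRCm38.p6), in windows of 250 bases before to 50 after each annotated start. The windows are shown because they hold repeated core sites of the cAMP response element, TGACG or its reverse complement CGTCA, which CREB and ATF proteins can bind. Capitals mark these core sites. Each sequence reads 5′ to 3′ on the gene's strand, stops before the start and leaves out any base that GENCODE M21 places in an exon. The positions are chr15:101266596-101266845 (plus strand) for Nr4a1, chr2:57124004-57124253 (minus strand) for Nr4a2, chr4:48045055-48045152 (plus strand) for Nr4a3 and chr10:67537619-67537868 (plus strand) for Egr2.
Nr4a1: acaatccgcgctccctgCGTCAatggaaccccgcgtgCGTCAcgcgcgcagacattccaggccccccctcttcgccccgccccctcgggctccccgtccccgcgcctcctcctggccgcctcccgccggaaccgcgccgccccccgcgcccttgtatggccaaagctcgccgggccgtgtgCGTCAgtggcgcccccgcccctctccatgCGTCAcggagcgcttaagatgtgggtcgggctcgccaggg
Nr4a2: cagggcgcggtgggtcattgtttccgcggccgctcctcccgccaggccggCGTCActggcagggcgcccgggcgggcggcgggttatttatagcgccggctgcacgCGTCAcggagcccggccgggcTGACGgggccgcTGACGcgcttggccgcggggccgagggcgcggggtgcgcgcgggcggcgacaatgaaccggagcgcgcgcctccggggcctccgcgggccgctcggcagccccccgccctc
Nr4a3: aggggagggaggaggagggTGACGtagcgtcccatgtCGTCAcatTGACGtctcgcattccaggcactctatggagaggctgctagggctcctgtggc
Egr2: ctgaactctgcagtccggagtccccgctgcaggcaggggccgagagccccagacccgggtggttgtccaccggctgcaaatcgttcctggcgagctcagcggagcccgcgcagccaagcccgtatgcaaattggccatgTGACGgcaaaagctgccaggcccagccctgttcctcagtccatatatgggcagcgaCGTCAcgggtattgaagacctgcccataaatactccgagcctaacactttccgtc
On both strands the whole 300-base windows of Nr4a1, Nr4a2 and Nr4a3 held 4 core sites each, and the Egr2 window shown, 1 of 5 for that gene, held 2. For Nr4a3, 3 of its 4 lie in the run printed. At least 1 core site occurred in 20.8% of 32851 mouse promoter windows of the same length, at least 2 in 5.01% and at least 4 in 0.231%. The full element TGACGTCA, the AP-1 site TGANTCA that Fos and Jun proteins bind, and the NR4A site AAAGGTCA had 0 matches in every window of these 4 genes. They occurred in 1.79%, 7.81% and 1.51% of all windows. The EGR site GCGNGGGCG had 1 match in the Nr4a1 window and 1 in the Nr4a2 window, against 5.55% of all windows with any match. A CArG box, the site of serum response factor, stood in the Egr2 window printed and in 1.63% of all windows. The core site GGAAA of the calcium-responsive NFAT proteins had 0 matches in the Nr4a1 and Nr4a3 windows. It had 1 match in the Nr4a2 window and 1 in the Egr2 window printed, against 61.3% of all windows with any match. These are letter matches and not measured binding.

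In GENCODE M21 (GRCm38), Nr4a1 (ENSMUSG00000023034) spans chromosome 15, 101254269 to 101274795, Nr4a2 (ENSMUSG00000026826) chromosome 2, 57106830 to 57124003, and Nr4a3 (ENSMUSG00000028341) chromosome 4, 48045153 to 48086447. Egr1 (ENSMUSG00000038418) spans chromosome 18, 34859823 to 34864984, Egr2 (ENSMUSG00000037868) chromosome 10, 67535475 to 67542188, and Egr3 (ENSMUSG00000033730) chromosome 14, 70077203 to 70082614. No other annotated gene overlaps any of the 6 on either strand. The printed Nr4a1 and Egr2 windows lie between annotated exons inside the spans of longer transcripts, and those of Nr4a2 and Nr4a3 lie just outside the gene.

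The CD3 cells held 15820166 UMIs of shared genes in skin (median 2083.5 UMIs per cell over all genes) and 23434633 in lung (median 2384). At least 2 UMIs of the 6 Treg markers were found in 98.9% of skin and 79.8% of lung CD3 cells, while Foxp3 itself had a UMI in 5.70% (365 cells) and 3.62% (302 cells). Levels are given as CPM, the UMIs of a gene as counts-per-million of the UMIs of all shared genes, with exact 95% Poisson intervals, ratios with exact binomial intervals and shares of cells with Clopper-Pearson intervals, all covering counting error only. These 3' counts are not divided by transcript length, and levels are compared between tissues or cells rather than between genes. The share of UMIs from ribosomal protein genes was 18.9% in skin and 38.1% in lung, which lifts the CPM of other genes in skin: the median log2 ratio of skin over lung was 0.36 over the 5687 genes that reached 20 CPM in 1 tissue or both. Median-of-ratios scaling brought it to -0.0011 and totals that leave out ribosomal protein and mitochondrial genes to 0.01. Of the genes at least 4-fold apart, 74.3% were on the skin side by CPM, 59.0% and 59.9% by these 2 scalings. There were 82 barcode strings found in both libraries, which were treated as different cells.

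All 3 NR4A genes were several-fold higher in skin than in lung. Nr4a1, the receptor-signal reporter gene also known as Nur77, had a skin level of 1473 CPM (1454 to 1492) and a lung level of 153 CPM (148 to 158), a 9.62-fold difference (9.29 to 9.97). Nr4a3 had a skin level of 216 CPM (209 to 223) and a lung level of 16.7 CPM (15.1 to 18.4), 12.9-fold (11.7 to 14.4). Nr4a2 had a skin level of 141 CPM (135 to 147) and a lung level of 28.4 CPM (26.3 to 30.7), 4.96-fold (4.55 to 5.42). The skin and lung intervals of each NR4A gene were far apart.

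Among the EGR genes the difference was smaller or rested on few molecules. Egr1 had a skin level of 141 CPM (135 to 146) and a lung level of 42.0 CPM (39.4 to 44.7), 3.34-fold (3.10 to 3.61), close to Fos itself at 1843 and 586 CPM (3.14-fold). Egr2 had a skin level of 19.7 CPM (17.5 to 22.0) and a lung level of 2.09 CPM (1.55 to 2.76), from 311 and 49 UMIs, which is 9.40-fold (6.94 to 13.0). Egr3 was near the limit of detection in both tissues. Its 14 skin and 32 lung UMIs give 0.885 and 1.37 CPM and a ratio of 0.648 (0.320 to 1.25), which includes no difference.

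On the scale of log2(CPM + 5), which understates differences of low genes, 3 of the 6 genes (Nr4a1, Nr4a2 and Nr4a3) were at least 4-fold higher in skin, against 4.06% of the 5687 genes on that side. Only 4 of the 6 reached 20 CPM in either library: Egr2 stood just under that level and Egr3 far below it. Under both other scalings the count was 2, since Nr4a2 had a log2 ratio of 1.75 and 1.81. With a pseudocount of 1 in place of 5 it was 4, which adds Egr2 at 2.74. No scaling or cell filter tried turned the direction of Nr4a1, Nr4a2, Nr4a3 or Egr1 in CD3 cells.

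**Figure D1:**
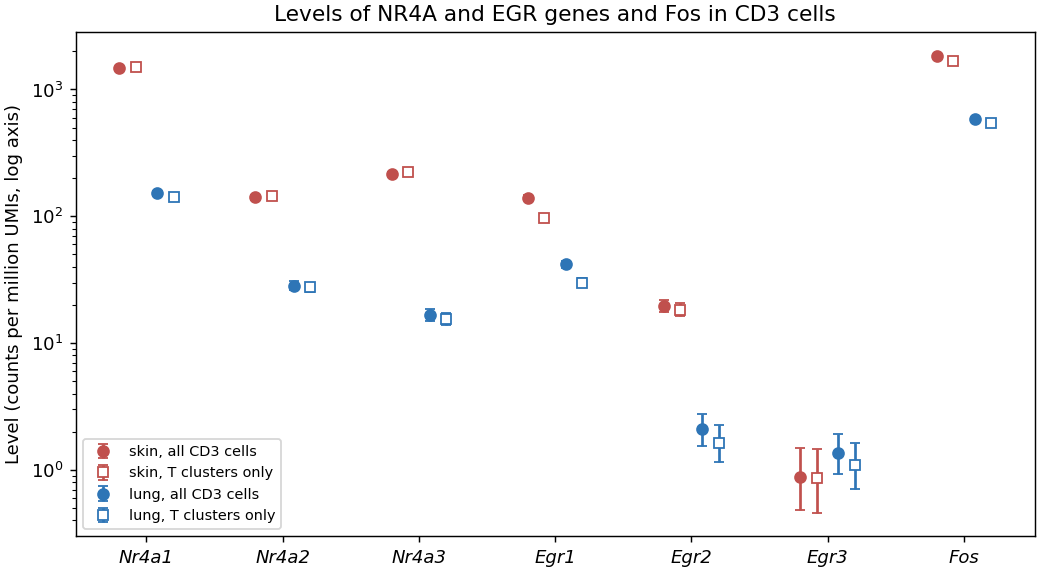
Points show CPM of each gene on a log axis for all CD3 cells (filled circles) and for cells of T clusters only (open squares), in skin (red) and lung (blue), with exact 95% Poisson intervals, 1 library per tissue. The tissues are far apart for Nr4a1 to Nr4a3 and Egr2 and overlap for Egr3, and Egr1 is the gene that drops most when non-T clusters are left out.

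The share of cells with a UMI separated the tissues most for Nr4a1. Among CD3 cells it was present in 91.4% (90.6 to 92.0) from skin and 27.9% (26.9 to 28.8) from lung. When every cell was thinned to 1000 UMIs, which leaves out 76 shallower lung cells and no skin cell, the shares were 73.2% and 13.5%. In skin 635 cells held 8 or more Nr4a1 UMIs and in lung 23, and among positive cells 18.1% of skin cells and 71.2% of lung cells held exactly 1. The skin difference thus extended over most cells rather than resting on a few. Nr4a3 was present in 37.5% of cells from skin and 4.24% from lung (19.8% and 1.58% after thinning) and Nr4a2 in 22.4% and 6.52% (12.2% and 2.53%). Egr1 was found in 19.6% and 7.29% (10.7% and 3.19%), Egr2 in 4.05% and 0.503% (1.91% and 0.218%) and Egr3 in 0.219% and 0.311% (0.0625% and 0.0967%). No cell type that should lack these genes was at hand. The barcodes kept without a CD3 UMI, 67 in skin (median 1303 UMIs) and 292 in lung (median 1813.5), had Nr4a1 in 79.1% and 17.1%. They may themselves hold T cells, since 85.1% and 30.5% of them had at least 2 UMIs of Treg markers. The part of free RNA in these shares was not tested.

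Much of the Egr1 in CD3 cells lay in cells with markers of fibroblasts. In skin, cells with at least 2 UMIs of 6 fibroblast markers made up 584 of 6400 CD3 cells and held 38.3% of Egr1 UMIs but 12.2% of Nr4a1 UMIs. Of the 36 skin cells with 8 or more Egr1 UMIs, 34 were such cells. Clusters were built in each library without the 6 genes or the early response genes. The fibroblast-like skin cluster (100 cells, led by Dcn, Col1a2, Col1a1, Col3a1 and Sparc, genes of the collagen matrix) had Egr1 at 1268 CPM (1178 to 1364) and 170 Egr1 UMIs per 100 Nr4a1 UMIs, against 4.66 to 12.8 per 100 in the skin T clusters. This cluster held 730 of the 2223 skin Egr1 UMIs. In the skin T clusters 497 cells also had at least 2 fibroblast marker UMIs. Their Egr1 was 84.2 CPM, not above the 98.1 CPM of T-cluster cells without these markers. A lung cluster of 34 cells led by Mgp, Inmt, Gpx3, Gsn and Mfap4 had Egr1 at 1160 CPM, and there Nr4a1 at 723 CPM and Egr2 at 43.7 CPM also lay above every lung T cluster (at most 182 and 3.43 CPM). The 30 lung cells with at least 2 fibroblast marker UMIs held 24.2% of Egr1, 18.4% of Egr2 and 12.5% of Egr3 UMIs, against 4.10% of Nr4a1, 3.60% of Nr4a2 and 2.30% of Nr4a3 UMIs. The 5 genes that went most with Egr1 across CD3 cells were Col3a1, Col1a1, Col1a2, Dcn and Sparc in skin and Ccl21a, Gsn, Mgp, Gpx3 and Inmt in lung. Lung Nr4a1 went most with Gsn, Mgp, Inmt, Apoe and Igfbp7, and lung Nr4a2 most with Ccl21a. The summed fibroblast markers stood at 1747 CPM in skin and 42.5 CPM in lung CD3 cells, with none of the 6 at 0.

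Clusters that held markers of other cell types were left out, 119 skin and 470 lung cells, a step chosen after seeing the data. Of the 470, 324 form a doubtful lung cluster led by S100a8, S100a9, Ngp, Camp and H2-Eb1, which held CD3 genes at 2138 CPM (2230 to 3046 in lung T clusters) and Foxp3 at 20.5 CPM, the highest of the lung clusters, and which may hold T cells. In the remaining 6281 skin and 7879 lung cells, called T clusters, Egr1 stood at 96.5 CPM in skin and 29.98 CPM in lung, 3.22-fold (2.93 to 3.53). Nr4a1 stood at 1506 and 143 CPM (10.5-fold), Nr4a2 at 144 and 27.6 CPM (5.24-fold) and Nr4a3 at 222 and 15.4 CPM (14.4-fold). Egr2 stood at 18.4 and 1.65 CPM (11.2-fold, 7.87 to 16.3). Egr1 was thus lower in T clusters than in all CD3 cells of either tissue, with a similar ratio between the tissues. In T clusters Nr4a1 to Nr4a3 again lay on the skin side by 4-fold or more, as did 3.87% of 5584 genes. With the doubtful lung cluster kept among the T clusters the ratios were 10.1 for Nr4a1, 5.19 for Nr4a2, 13.3 for Nr4a3, 3.23 for Egr1 and 10.4 for Egr2.

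In skin the levels of the NR4A genes differed less across cells grouped by Fos than those of Egr1 and Egr2. Cells thinned to 1000 UMIs were sorted by their Fos UMIs into those with 0 (2804 skin and 5239 lung cells), 1 (1648 and 1883), 2 to 3 (980 and 932) and 4 or more (968 and 219). Nr4a1 in skin was 1465, 1516, 1539 and 1724 CPM in that order, and in lung 151, 170, 167 and 365 CPM. Nr4a3 in skin was 224, 242, 242 and 241 CPM. Its lung values of 16.2, 16.5, 13.9 and 27.4 CPM rest on 6 UMIs in the last group. Nr4a2 in skin was 137, 146, 185 and 177 CPM. The NR4A genes thus differed less across the skin Fos groups than Egr1 and Egr2. The intervals of the end groups of skin Nr4a1 still lay apart, at 1420 to 1510 and 1642 to 1809 CPM. So did those of skin Nr4a2 with 0 and with 2 to 3 Fos UMIs, at 124 to 152 and 159 to 214 CPM. Lung cells with the most Fos lay far below skin cells with none for each NR4A gene.

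For the EGR genes the Fos groups were spread widely. Egr1 in skin was 74.5, 88.0, 150.0 and 349 CPM and in lung 24.6, 37.7, 64.4 and 169 CPM. In T clusters the same groups gave Egr1 at 74.0, 82.6, 130.1 and 254 CPM in skin and 24.8, 38.0, 54.0 and 87.6 CPM in lung. Egr2 in skin was 12.8, 13.96, 22.4 and 55.8 CPM, the last value from 54 UMIs. Fos levels thus went with Egr1 and Egr2 in skin cells, and with Egr1 in lung cells, also where non-T clusters were left out. Lung Nr4a1 was higher in the last Fos group in T clusters too. It stood there at 330 CPM (254 to 421, from 64 UMIs), against 145 CPM (135 to 156) with 0 Fos UMIs.

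**Figure D2:**
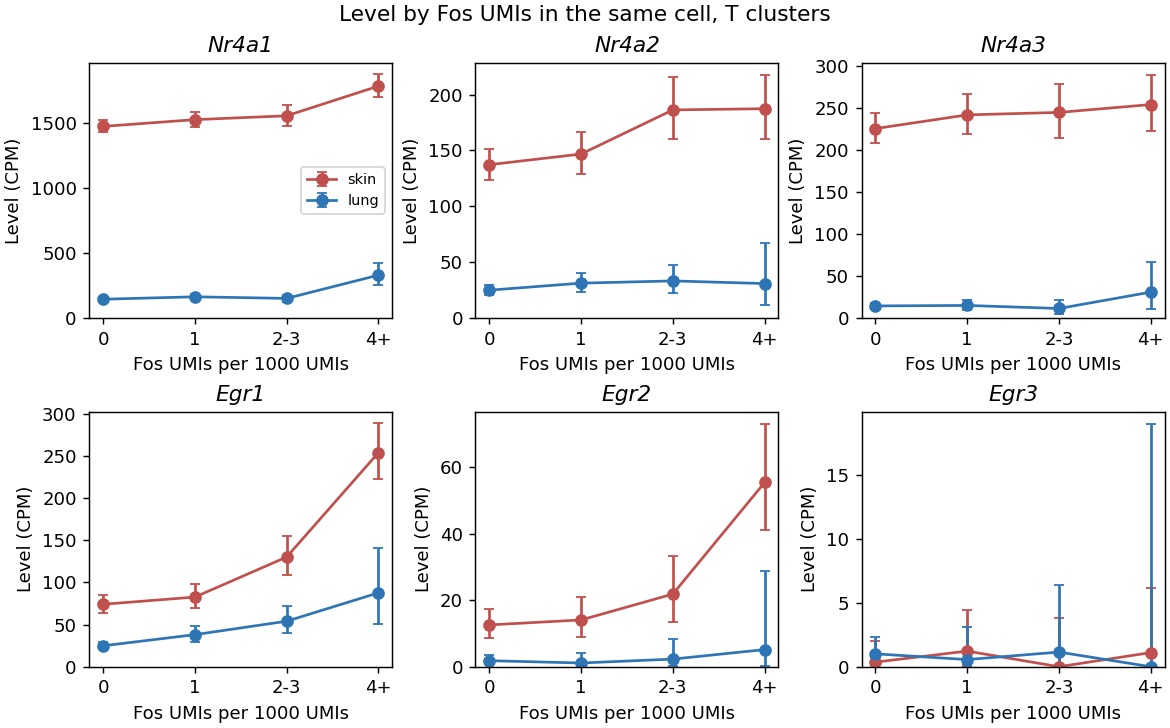
Each panel shows the CPM of 1 gene (linear axis from 0, exact 95% Poisson intervals) in T-cluster cells thinned to 1000 UMIs and grouped by their own Fos UMIs (0, 1, 2 to 3, 4 or more), skin in red and lung in blue. Skin Nr4a3 stays between 225 and 254 CPM, while skin Egr1 goes from 74.0 to 254 CPM and Egr2 from 12.6 to 55.4 CPM.

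Counted as shares of cells, Egr1 was found in 13.5% of skin cells with a Fos UMI and 7.17% of those without (a ratio of 1.89), and Egr2 in 2.42% and 1.25% (1.94). Nr4a1 was found in 74.2% and 71.9% (1.03), Nr4a2 in 13.0% and 11.3% (1.15) and Nr4a3 in 20.02% and 19.5% (1.02). In lung, Egr1 was found in 4.58% and 2.39% (1.92), Nr4a1 in 14.5% and 12.9% (1.13), Nr4a2 in 2.83% and 2.35% (1.21) and Nr4a3 in 1.58% and 1.58% (0.999). A ratio of at least 1.5 was reached by 3 of 6 genes in skin, Egr1, Egr2 and Egr3 (the last in 4 cells), against 1.17% of genes found in at least 100 cells, and by 1 of 6 in lung, Egr1, against 0.711%. For skin Nr4a1, already in 71.9% of cells without Fos, the ratio could not exceed 1.39, so it was unable to reach 1.5. In lung the count moved with the settings: the Nr4a1 ratio was 1.91 and the Nr4a3 ratio 1.89 in cells with a Foxp3 UMI, and the Nr4a2 ratio was 1.70 with thinning to 700 UMIs. In T clusters the Egr1 ratio was 1.69 in both tissues, with 0.834% of skin and 0.611% of lung genes at 1.5 or more. The intervals of the shares with and without Fos lay apart for Egr1 in both tissues and for Egr2 in skin, and overlapped for each NR4A gene in both tissues.

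The tissue difference was measured again in cells with no Fos. Among the thinned cells with 0 Fos UMIs the ratios of skin over lung were 9.69 (8.98 to 10.5) for Nr4a1, 5.45 (4.46 to 6.69) for Nr4a2, 13.8 (11.01 to 17.6) for Nr4a3, 3.03 (2.42 to 3.80) for Egr1 and 6.11 (3.05 to 13.3) for Egr2. As in all cells, 3 of the 6 were at least 4-fold higher in skin on the log2(CPM + 5) scale, against 4.26% of 5638 genes (4.47% of 5619 in T clusters). Cells with 0 Fos UMIs before any thinning, 1494 in skin and 3504 in lung and a set chosen after seeing the data, gave 10.5 for Nr4a1, 6.23 for Nr4a2, 12.8 for Nr4a3, 2.71 for Egr1 and 7.44 for Egr2. A cell without a Fos UMI at this depth may still hold Fos RNA. The NR4A difference was as large without a Fos UMI as in all cells.

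A summed list of 21 early response genes known to respond to tissue digestion, which includes Fos, set the members apart in another way. Its median was 19 UMIs per 1000 in skin cells and 7 in lung cells, so that the tissues overlap only in part. With cells grouped by this sum, Nr4a1 in skin went from 721 CPM (0 to 4 UMIs, 61 cells) to 1767 CPM (20 or more, 3056 cells), and in lung from 101 CPM (2172 cells) to 589 CPM (207 cells). The ratio of skin over lung for Nr4a1 went from 7.15 (5.05 to 9.93) to 2.998 (2.51 to 3.62) in these end groups, and for Nr4a3 from 23.7 (10.4 to 52.1) to 6.27 (3.29 to 13.8). Egr1 stood at 193 CPM in skin and 251 CPM in lung in the top group, a ratio of 0.767 (0.577 to 1.04). Giving lung cells the skin shares of these groups brought the ratio from 9.38 to 3.82 for Nr4a1, from 14.3 to 7.31 for Nr4a3, from 5.51 to 3.25 for Nr4a2, from 3.65 to 0.902 for Egr1 and from 9.18 to 1.43 for Egr2. Giving them the skin shares of the Fos groups alone brought these to 8.01, 13.3, 5.36, 2.34 and 6.53 in the same order. In T clusters the values by the summed list were 4.15 for Nr4a1, 7.60 for Nr4a3, 3.05 for Nr4a2, 1.09 for Egr1 and 2.12 for Egr2. Reweighted in this way, the NR4A genes were still higher in skin and Egr1 was not. Within T-cluster groups the Egr1 ratio was 5.34 (1.36 to 15.2) at 0 to 4 UMIs and 2.30 (1.54 to 3.38) at 5 to 9. It was 1.54 (1.11 to 2.13) at 10 to 14, 1.22 (0.779 to 1.97) at 15 to 19 and 0.961 (0.648 to 1.49) at 20 or more. All of these reweighted values, those of the NR4A genes too, lean on that last group, with 47.5% of skin cells but only 161 lung cells. They have no interval. The last group has no upper limit. The 90th percentile of the sum was 37 in skin and 13 in lung T clusters, so skin and lung cells of that group may still differ in the sum. Receptor signals also induce many genes of the list, so the groups do not separate receptor signal from digestion, and the part of digestion was not tested.

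The early response list did not move as 1 block between the tissues. All 21 of its genes reached 20 CPM. At 2-fold or more, 10 of them lay on the skin side and 4 on the lung side, and their median log2 value was 0.78, beside 0.36 for all genes tested. The background on the skin side was 14.9% of genes and on the lung side 5.05% (1.41% at 4-fold). In T clusters these shares were 15.4%, 4.8% and 1.27%, and of the 20 list genes that reached 20 CPM there 10 lay on the skin side and 6 on the lung side, with a median of 1.19. On the skin side Gadd45b, a stress and NF-kappaB response gene, stood at 707 and 64.8 CPM, Fosb at 356 and 48.6 CPM, the stress factor gene Atf3 at 76.9 and 7.98 CPM and the MAP kinase phosphatase gene Dusp1 at 3777 and 787 CPM. On the lung side were the heat shock genes Hspa1b (13.6 and 61.1 CPM), Hspa1a (133 and 353 CPM) and Dnajb1 (147 and 320 CPM) and the small GTPase gene Rhob (25.4 and 67.3 CPM), of which Hspa1b, Dnajb1 and Rhob are named after their values were seen. Jun, the usual partner of Fos in AP-1, stood at 297 CPM in skin and 464 CPM in lung, so Fos and Jun differed in opposite directions. In T clusters Jun stood at 167 and 415 CPM, and Atf3 at 60.8 and 2.61 CPM, a ratio of 23.4 in place of 9.63. Under both other scalings each skin ratio is lower by about the shift of the median given above.

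Genes that T cell receptor signals induce were more uniformly on the skin side. Of 26 such genes, 23 reached 20 CPM, of which 17 lay on the skin side by 2-fold or more and 0 on the lung side. Their median log2 value was 1.78. Over all genes tested, 14.9% lay on the skin side and 5.05% on the lung side, with a median of 0.36. In T clusters 18 of 23 list genes lay on the skin side, beside 15.4% of all genes. Nfkbid, an inhibitor-like partner of NF-kappaB that acts in Treg development, stood at 413 CPM in skin and 48.9 in lung. Irf4, a factor of effector Tregs whose level follows receptor signal strength, stood at 71.1 and 5.97 CPM. Cd40lg, a costimulatory ligand gene, stood at 109 and 11.7 CPM, and the activation and residency marker gene Cd69 at 806 and 162 CPM. The gene of the receptor-signal marker Cd5 differed little, at 253 and 225 CPM, as did Myc at 37.7 and 32.3 CPM. The 4 NR4A and EGR genes that reached 20 CPM had a median of 2.68.

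Cofactors and reported targets of NR4A and EGR proteins were split. Of 20 genes, 19 reached 20 CPM, with 8 on the skin side by 2-fold or more, 5 on the lung side and a median log2 value of 0.83. The shares over all genes were 14.9% and 5.05%, and in T clusters the list counts were again 8 and 5. Tigit, an inhibitory receptor gene, stood at 64.0 and 3.88 CPM and the nuclear receptor gene Rora at 503 and 70.3 CPM. The 5 on the lung side were Ccr7, the lymph node homing receptor gene (113 and 603 CPM), Bach2, a repressor of effector genes (3.92 and 36.9 CPM), Klf2, a regulator of lymphocyte exit (554 and 2402 CPM), and the signal-restraining genes Dgka (66.6 and 210 CPM) and Cblb (31.5 and 72.1 CPM), the last 3 named after their values were seen. Nab2, an EGR-induced corepressor of EGR proteins, stood at 66.9 and 33.8 CPM. Among 20 upstream regulators 16 reached 20 CPM, with a median of 0.51. Of these 16, 4 lay on the skin side by 2-fold or more, beside 14.9% of all genes, and 0 on the lung side. In T clusters 5 of 16 lay on the skin side, beside 15.4% of all genes. The 4 were the calcium-responsive factor genes Nfatc1 (70.8 and 23.3 CPM) and Nfatc2 (37.0 and 13.4 CPM), the cAMP-responsive factor gene Crem (410.2 and 154 CPM) and the calcineurin catalytic subunit gene Ppp3ca (123 and 54.3 CPM).

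Across clusters the level of Nr4a1 in skin was nearly flat. In 7 of the 9 skin T clusters it lay between 1563 and 1786 CPM. Lower values were found in the cycling-like cluster (167 cells, 1105 CPM) and in the cluster led by Izumo1r, Ccr7, Tbc1d4, Bcl2 and Chchd10 (781 cells, 846 CPM), central-like by its markers. Even the lowest skin T cluster exceeded every lung T cluster, which lay between 70.3 CPM in cycling-like cells and 182 CPM, and the doubtful lung cluster at 325 CPM. Nr4a3 ranged from 137 to 279 CPM over skin T clusters and from 3.43 to 24.9 CPM over lung T clusters. The cluster names were rebuilt here and may differ from those of the study.

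The skin T cluster with the highest Fos also had the highest Egr1 and Egr2, but not the highest Nr4a1 or Nr4a3. The cluster of 824 cells led by Tnf, Dusp6, Lpar6, Klf2 and Tsc22d3 held Fos at 5883 CPM (5757 to 6011), against 727 to 2263 CPM in the other skin T clusters. Its Egr1 was 214 CPM (191 to 240) and its Egr2 48.3 CPM (37.5 to 61.2), above the other skin T clusters, which lay between 59.6 and 116 CPM and between 7.54 and 19.8 CPM. Its Nr4a1 of 1680 CPM and Nr4a3 of 261 CPM lay inside the range of the others. Fos and the early response genes were kept out of the clustering, but genes that lead this cluster, such as Dusp6 and Klf2, were not. Whether these follow the same signals as Fos was not tested.

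**Figure D3:**
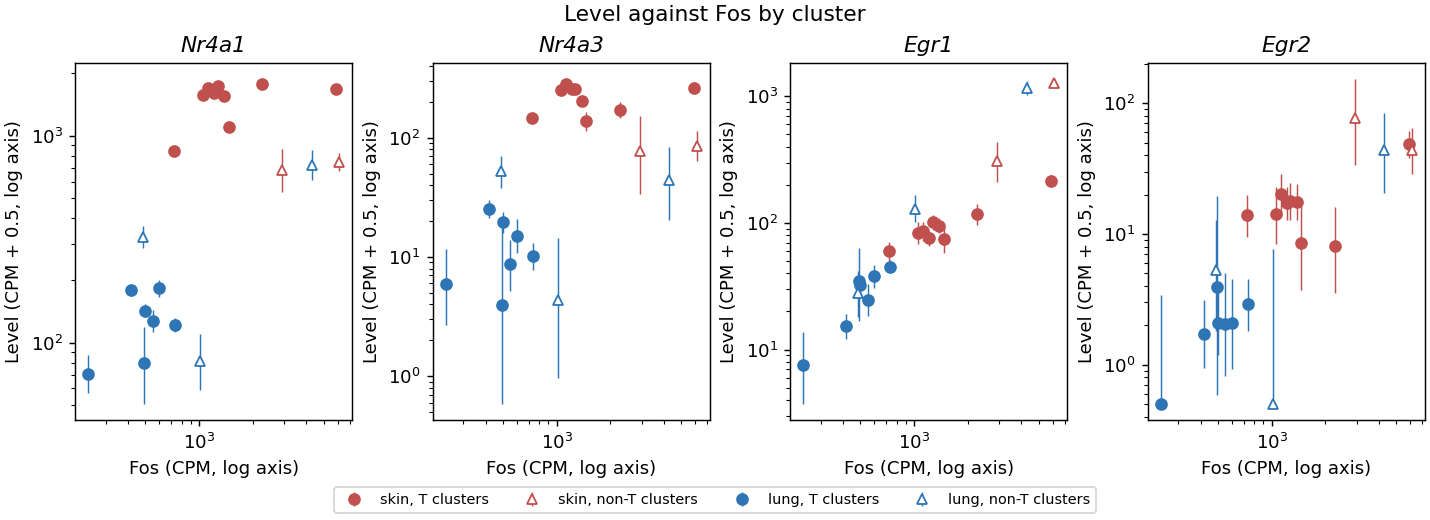
Each point is 1 cluster of a library, placed by its Fos level (horizontal, log axis) and by the level of 1 gene plus 0.5 CPM (vertical, log axis), circles for T clusters and triangles for non-T clusters, with exact 95% Poisson intervals. Skin and lung T clusters stay apart for Nr4a1 and Nr4a3 whatever their Fos, while for Egr1 the highest points are the non-T clusters at 1268 and 1160 CPM.

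In skin the pair found together most above independent detection on more than 1 cell was Egr1 with Egr2. Of 15 pairs in thinned skin cells, 2 were found together at least 1.5 times as often as independence gives. That held for 5.46% of pairs of genes found in at least 100 cells, a limit that Egr3 (4 cells) misses. Egr1 and Egr2 shared 29 cells where 13.1 were expected, a ratio of 2.21 (1.48 to 3.18). The other, Egr1 with Egr3, rests on 1 cell. In T clusters, where 5.32% of such gene pairs reached 1.5, Egr1 and Egr2 shared 25 cells against 11.6 expected, 2.15 (1.39 to 3.17). Only 3 of the T-cluster cells without a Fos UMI held both. There Egr1 was found in 8.82% of cells with Egr2 and 7.17% of those without (1.23). Nr4a2 and Nr4a3 shared 209 cells against 155 expected, 1.35 (1.17 to 1.54). Nr4a1 with each of Nr4a2, Nr4a3, Egr1 and Egr2 lay between 1.02 and 1.05, with intervals that include 1. Since Nr4a1 was found in 73.2% of thinned skin cells, its 5 pairs could not exceed 1.37 and were unable to reach 1.5. Nr4a2 with Egr1 stood at 0.797 (0.618 to 1.01).

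In lung more pairs reached 1.5 than in skin, on small numbers. Skin pairs with Nr4a1 could not reach 1.5, so these counts do not show that the members overlapped more in lung. Of 15 lung pairs, 9 reached 1.5, against 7.77% of pairs of genes found in at least 100 cells. Lung Egr2 (18 cells) and Egr3 (8 cells) miss that limit. Every pair that reached 1.5 includes Egr2 or Egr3, except Nr4a1 with Nr4a3 and Nr4a2 with Nr4a3. Nr4a1 and Nr4a3 shared 29 cells against 17.7 expected, 1.64 (1.10 to 2.35), and Nr4a2 and Nr4a3 shared 8 against 3.31, 2.42 (1.04 to 4.76). Egr1 and Egr2 shared 6 cells against 0.574. The other pairs with a ratio of at least 1.5 shared at most 7 cells. In T clusters, with 7.54% of such gene pairs at 1.5 or more, Nr4a1 and Nr4a3 shared 22 against 14.4, 1.52 (0.955 to 2.31), an interval that includes 1. Thinning leaves 1000 UMIs per cell, so joint detection of low genes is sparse and weak ratios are no finding.

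Skin cells with several members at once more often held Fos. Of the thinned skin cells, 1129 held none of the 6 genes, 3370 held 1, 1549 held 2, 329 held 3, 22 held 4 and 1 held 5. Independent detection would give 269 cells with 3 and 16.7 with 4. A Fos UMI was found in 51.8% of cells with none, 55.2% with 1, 58.4% with 2 and 68.7% with 3. In lung 6665 cells held none, 1487 held 1, 105 held 2 and 14 held 3, with a Fos UMI in 35.7%, 40.3% and 42.9% of the first 3 groups. For the same first 3 groups the Fos shares in lung T clusters were 35.7%, 40.2% and 40.2%. Skin T clusters gave 51.5%, 54.9%, 57.3% and 68.2% with 0, 1, 2 and 3 members. Of skin cells with Nr4a1, 43.0% had no Fos UMI, beside 43.8% of all skin cells, and of lung cells with Nr4a1 60.5%, beside 63.3%.

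Second genes were set against each member in T clusters. In skin every ratio for Nr4a1 over the 15 second genes plotted lay between 0.91 and 1.11, and with Junb, not plotted, the ratio was 1.25. Nr4a1 was found in most skin cells, which caps its ratios. Nr4a3 was found in 26.9% of cells with Atf3 and 19.6% without (1.37). It was found in 24.1% of cells with Fosb and 18.6% without (1.29), and in 23.1% with Nfkbid and 18.4% without (1.26). Among cells without a Fos UMI these ratios were 1.42, 1.43 and 1.23. Egr2 was found in 2.49% of cells with Cd69 and 1.14% without (2.19). In cells without a Fos UMI that ratio was 1.43. With other receptor-induced genes the skin Egr2 ratios were mixed. They were 1.37 with Nfkbid, 1.28 with Myc, 0.823 with Irf4, 0.739 with Tnfrsf4, 0.737 with Tnfrsf9 and 0.569 with Cd5. Those with Myc and Irf4 rest on 5 and 7 joint cells. In lung, Nr4a1 went most with Nfkbid, found in 24.1% of cells with it and 12.4% without (1.94), and in cells without a Fos UMI at 2.17. Nr4a3 in lung was found in 2.14% of cells with Tnfrsf4, the gene of the costimulatory receptor OX40, and 1.11% without (1.92). Egr1 in lung was found in 5.31% of cells with Jun and 2.05% without (2.59), and in 5.29% with Hspa1a and 2.52% without (2.10). With receptor-induced genes its ratios were mixed: 1.73 with Nfkbid (5.04% and 2.91%), 1.73 with Myc, 1.42 with Cd69, 1.14 with Cd5, 0.897 with Tnfrsf4, 0.853 with Tnfrsf9 and 0.852 with Irf4, of which those with Myc, Tnfrsf9 and Irf4 rest on 12, 8 and 1 joint cells.

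**Figure D4:**
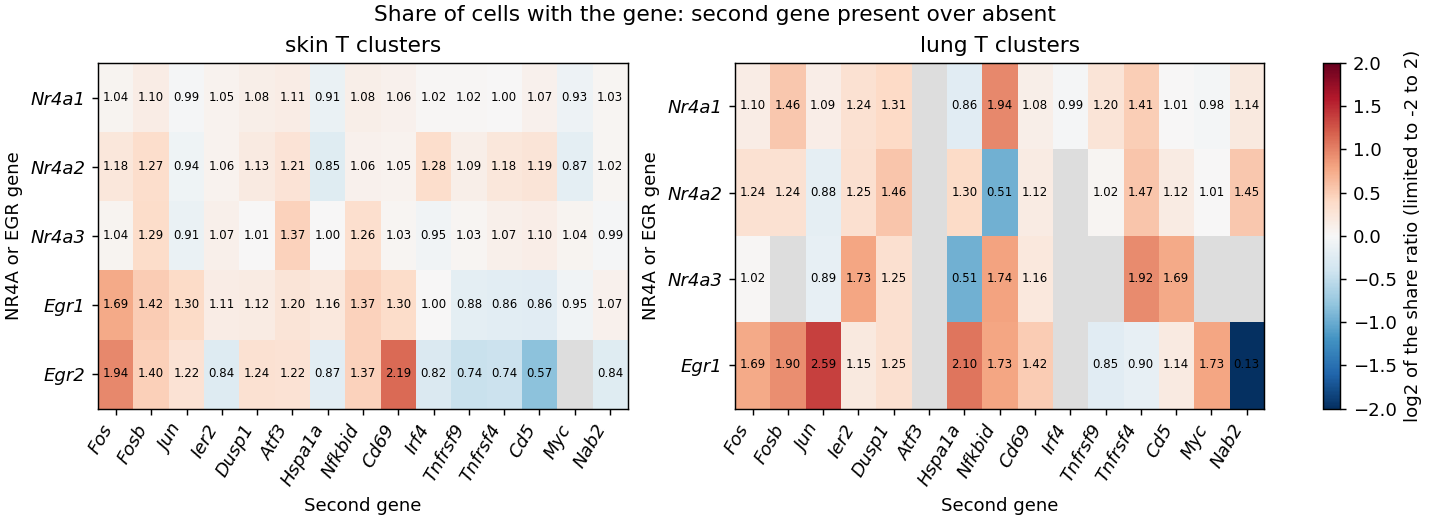
Each tile gives the share of thinned T-cluster cells that hold the row gene among cells with the column gene over that among cells without it, with log2 of the ratio as colour, and grey where fewer than 5 joint cells are expected. In skin the Nr4a1 row stays between 0.91 and 1.11 and Egr1 and Egr2 stand out with Fos (1.69 and 1.94), while in lung Egr1 stands out with Jun (2.59) and Nr4a1 with Nfkbid (1.94).

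The genes that went most with each member in T clusters were ranked by CPM in positive over negative cells, with 20 CPM added to both. For skin Egr1 they were Fos (2.25), the cytokine genes Tnf (1.82) and Il13 (1.68), Mical1 (1.64) and Klf6 (1.61). For skin Egr2 they were the chemokine genes Ccl1 (10.5) and Xcl1 (8.13), then Fos (2.71), Tnfsf9 (2.57), the ligand gene of 4-1BB, and Nrn1 (2.51). Ccl1 stood at 299 CPM in the 117 skin cells with Egr2 and 10.4 CPM in those without. For skin Nr4a1 they were Il13 (1.49), Areg (1.46), Fosb (1.46), Atf3 (1.40) and Atg101 (1.39), with Fos at rank 20 (1.29), for Nr4a2 Phyh (1.60), Rassf2 (1.499), Foxo1 (1.47), Matk (1.42) and Angel2 (1.41), and for Nr4a3 Taf5l (1.53), Nr4a2 (1.42), Irs2 (1.41), H2-Ab1 (1.39) and Fbxo11 (1.38). In lung, Nr4a1 went most with Nfkbid (1.86), Dusp5 (1.60), Csrnp1 (1.57), Tgif1 (1.56) and Cd83 (1.55). Lung Nr4a2 went with the inhibitory receptor gene Pdcd1 (3.45), Ramp3, Uspl1, Lonp2 and Mxi1, and lung Nr4a3 with the tissue residency receptor gene Cxcr6 (3.28), Fgl2, Samsn1 and Ckb. Only 2 thinned lung cells held both Nr4a3 and Cxcr6, of 19 with Cxcr6. Lung Egr1 went with Hspa1b (3.28), Hspa1a (2.23), Ifit3 (2.21), Jun (2.16) and Dock11 (2.003). The positive cells numbered 197 for lung Nr4a2, 111 for lung Nr4a3 and 235 for lung Egr1, and no chance level was set for these lists.

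The share of cells with Nr4a1 differed with the second gene held by the cell. In thinned skin CD3 cells with Ccr7 it was found in 63.6% (58.8 to 68.2) and in the others in 73.9%. In those with Areg, the repair factor gene, it was found in 77.1% (75.6 to 78.5), against 69.0% in the others. In lung the order for Ccr7 was the other way: Nr4a1 was found in 14.8% (13.5 to 16.1) of 3035 cells with Ccr7, against 12.8% of the others. The gap was smaller in lung T clusters, at 13.98% (12.7 to 15.3) and 12.5%. Also in lung, Nr4a1 was found in 24.4% (18.98 to 30.6) of 225 cells with Areg, against 13.2% of the others, and in 31.5% (19.5 to 45.6) of 54 cells with Il1rl1, the interleukin 33 receptor gene, against 13.4%. In the 39 lung cells with Il10 it was found in 28.2% (15.001 to 44.9), against 13.4%, and in skin cells with Il10 in 76.1%, against 72.5%. Fos was not more frequent with Areg or Il1rl1, and was more frequent with Il10: it was found in 35.6% of lung cells with Areg and 36.7% of those without, in 31.5% with Il1rl1 and 36.7% without, and in 43.6% with Il10 and 36.6% without. In skin cells Fos was found in 55.2% with Areg and 57.3% without, in 49.3% with Ccr7 and 56.7% without, and in 60.6% with Il10 and 55.2% without.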

How the data were processed

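Each matrix the authors deposited gives whole-number UMI counts for every gene in barcodes they had called as cells. Per the submitters' processing notes, Cell Ranger and mm10 were used, and per the file headers release 3.0.2 wrote the lung files. A second, shallower lung table (all 8626 of its barcodes are in the first) served only as an alternative. Barcodes needed at least 200 genes, at most 10% mitochondrial UMIs and 1 CD3 UMI. Counts were summed per library and divided by the total over shared genes to give CPM, with no test since each tissue has 1 library. For shares and joint detection each cell was thinned to 1000 UMIs with a fixed seed. Limits for a count of 0 (3 counts) are 0.190 CPM in skin and 0.128 CPM in lung. Clusters came from scanpy 1.11.5 and leidenalg 0.10.2 (2000 variable genes, 30 components, 15 neighbours, resolution 0.8) and were named from marker lists. The doublet caller Scrublet marked 0 cells in both libraries and so did not work, and doublets were kept, with the 6% of highest scores removed as an alternative.

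The members and gene lists were chosen with earlier results of these data known. Genes named are the 6 members and Fos, up to 4 genes per list with the widest ratio among those with at least 20 CPM, 16 second genes, the 5 genes that went most with each member (at least 50 positive cells and 50 CPM) and the 5 leading genes of a cluster. Others are marked where named, and 1 gene that this rule picks is not reported here. Alternatives were CD3, mitochondrial and doublet filters, removal of cells with other cell type markers or without a Foxp3 UMI, the second lung table, other scalings, pseudocounts, thinning depths and seeds, cells split by depth into 3 groups, and removal of non-T clusters with or without the doubtful lung cluster, the last chosen after seeing the data. The steps were tested on simulated data.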

Additional observations from a re-analysis of the deposited data

How the results depend on the processing

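No paired analysis was possible because each tissue has 1 library and no replicate numbers. The number of members at least 4-fold higher in skin was 3 in all cells and in cells with no Fos UMI, and lay between 2 and 4 under every alternative run. Among cells with no Fos UMI and a Foxp3 UMI the 3 were Nr4a1, Nr4a3 and Egr1, with Nr4a2 at a log2 ratio of 1.89. The counts of joint detection and of Fos dependence rest on few cells and moved more. Member pairs at 1.5 times or more in skin, 2 in the report, were 4 in cells with a Foxp3 UMI and 1 with thinning to 1500 UMIs, with another seed and in the shallowest of 3 groups of cells by UMIs. In lung, 9 pairs became 3 in cells with a Foxp3 UMI. Members found at least 1.5 times as often with Fos in skin, 3 in the report, were 1 in cells with a Foxp3 UMI and in the deepest group. In lung, 1 became 2 without cells holding other cell type markers, 3 in cells with a Foxp3 UMI, in the shallower table, with 1500 UMIs, with another seed and in the deepest group, and 4 with 700 UMIs. The direction turned for Egr2 among cells with no Fos UMI and a Foxp3 UMI (log2 ratio -0.070 against 1.33), and for the Egr3 ratio with Fos in skin (2.34 in the report), which was 0.367 at 700 UMIs, 0.832 at 1500, 0.382 with another seed and 0 in the middle group. Only 4 thinned skin cells held Egr3, and 365 skin and 302 lung cells a Foxp3 UMI; the alternatives with Foxp3 UMIs leave fewer cells, and for other moves the cause was not tested. The Egr1 ratio with Fos stayed between 1.36 and 2.02 in skin and between 1.51 and 2.83 in lung over the alternatives. The NR4A ratios with Fos moved more in lung, between 0.986 and 1.91 for Nr4a1, 1.06 and 1.70 for Nr4a2 and 0.675 and 1.89 for Nr4a3. In skin they lay between 1.01 and 1.05, 0.962 and 1.42, and 0.638 and 1.18.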

Other observations

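A lung cluster of 324 CD3 cells had higher Nr4a1 and Nr4a3 than every lung T cluster. It was led by S100a8, S100a9, Ngp, Camp and H2-Eb1, genes of granulocytes and of antigen presentation, and was given no name, since these genes go against the dendritic markers that also stood out in it. Nr4a1 stood there at 325 CPM (287 to 366) and was found in 24.8% of thinned cells, against 6.88% to 16.6% in the lung T clusters. Nr4a3 stood at 51.7 CPM (37.4 to 69.7), above the 24.9 CPM of the highest lung T cluster, while Egr1 at 27.7 CPM and Fos at 487 CPM lay within the lung range. It was counted among the non-T clusters, but its CD3 genes at 2138 CPM, Foxp3 at 20.5 CPM, Ccr7 at 1611 CPM and Tnfrsf9 at 249 CPM go against that, and whether it holds T cells with free granulocyte RNA was not tested.

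Barcodes without a CD3 UMI held more Egr1 than CD3 cells in both tissues. Egr1 stood at 713 CPM (564 to 889) in the 67 such skin barcodes and 251 CPM (214 to 293) in the 292 of lung, against 141 and 42.0 CPM in CD3 cells. Nr4a1 stood at 1282 CPM (1079 to 1511) and 168 CPM (138 to 202), near the values of the CD3 cells of the same tissue. Fibroblast markers summed to 9810 CPM in the skin barcodes and 1557 CPM in those of lung. Lung epithelial markers summed to 80122 CPM in the lung barcodes.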
